A study of Mus musculus with 18 samples.

Results

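Reprogrammed colon tumour cells (RTCs) were compared with derivatives made from them. RTCs are mouse colon tumour cells that were taken back to a pluripotent state with the methods used to make induced pluripotent stem cells. The comparison used 5 of the series' 18 single-colour Affymetrix gene arrays, and its members were chosen by sample title. The 3 RTC arrays were RTC 1, RTC 2 and RTC 3, and the 2 derivative arrays were #45, derived from RTC 1, and #9, derived from RTC 3. RTC 2 had no derivative among the arrays. The labels call all 5 samples reprogrammed colon tumour cells, and they state no Apc genotype for them, nor what was changed in the derivatives. It is background from outside the labels that #45 and #9 are understood to have regained working Apc. The growth protocol places RTCs and #45 in serum medium with LIF, the cytokine that holds mouse embryonic stem cells (ESCs) in the pluripotent state, and #9 is not named there. Each derivative is represented by 1 array, and the labels do not say whether arrays came from separate cultures, so p-values measure only the spread between these samples.

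The 3 ESC arrays with the Apc genotypes +/+, Min/+ and Min/Min, and 2 arrays of S33 ESCs without or with doxycycline (dox), were used only to show the levels of the same genes in other pluripotent cells. Min is a truncating Apc mutation, and the S33 arrays belong to the series' question of mutant beta-catenin induction. The growth protocol gives Min/Min ESCs a trophoblast stem cell medium with FGF4 besides the ESC medium, and it does not say which applied to the array.

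Apc is a scaffold of the cytoplasmic complex that marks beta-catenin for destruction. When Apc is truncated, or when a Wnt ligand silences the complex, beta-catenin accumulates, enters the nucleus and activates genes together with TCF and LEF factors. Loss of Apc starts most intestinal tumours. In mouse ESCs the same signal helps to sustain the naive state, and in the embryo it drives posterior and primitive streak fates while the anterior neural plate forms where it is low.

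All 5 arrays carried a pluripotent profile. The mean level of 6 pluripotency markers was 12.71, 12.67 and 12.70 in RTC 1, RTC 2 and RTC 3, and 12.55 in #45 and 12.59 in #9. Levels are log2 intensities, quantile normalized over all 18 arrays, on which every array's median was 7.93. Of 6 markers of intestinal epithelium, 0 lay above the array median in any of the 5 arrays. Other genes of the intestine did, namely 10 of 26 measured enterocyte genes, among them Cdx1, Anpep (9.18 to 10.83) and Dpp4 (8.79 to 9.98), and 16 of 18 measured intestinal stem cell genes. RTC 2 and RTC 3 were nearly alike, with 23 of 11940 genes at least 2-fold apart, while RTC 1 differed from them at 395 and 327 genes. The derivatives differed from each other at 742 genes, about as many as separated RTC 1 from #45 (698) or RTC 3 from #9 (793). Some deposited values of #9 were identical to those of another 2 arrays in the series, of embryonic fibroblasts (11.7% and 9.52% of probe sets), and 0 were identical to those of the other 4 arrays compared here.

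RTCs and derivatives differed in a small set of genes with large differences. Of 11940 genes tested with limma, 191 (1.6%) passed a Benjamini-Hochberg adjusted p of 0.05, 100 higher in RTCs (0.838%) and 91 lower (0.762%). Of the 191, 187 differed at least 2-fold and 29 at least 4-fold, and the smallest difference that passed was 0.95 on the log2 scale. In all 191 genes the 3 RTC arrays lay on one side of both derivatives, a pattern that 13.9% of all genes tested showed with RTCs above and 17.2% with RTCs below. The count depended on which array was left out. Leaving out RTC 1, RTC 2 or RTC 3 left 33, 56 or 37 genes, leaving out #9 left 116, and leaving out #45 gave 383. With the line as a random block 302 genes passed. On the values as deposited 81 passed, of which 71.6% were higher in RTCs, against 52.4% of the 191 and 44.8% of 212 with arrays centred on their medians. Centring shifted the median difference of all genes from -0.02 to -0.12.

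The genes that define the pluripotent state differed little. Pou5f1, the core pluripotency factor Oct4, lay at 12.98, 13.13 and 13.16 in the RTCs and at 13.08 and 13.05 in #45 and #9. Nanog lay at 13.26, 13.42 and 13.48 against 13.27 and 13.28. Neither passed the test, with differences of 0.02 and 0.11 (adjusted p = 0.973 and 0.848). Apc itself lay at 10.20, 10.08 and 10.04 against 9.86 and 10.47 (difference -0.06 ± 0.22 SE, adjusted p = 0.945), and its probe set does not tell a truncating allele from an intact one. Ctnnb1, which encodes beta-catenin, lay at 12.55, 12.72 and 12.65 against 12.56 and 12.77 (-0.02 ± 0.18, adjusted p = 0.976). Any difference in beta-catenin protein is outside what the arrays measure.

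**Figure D1:**
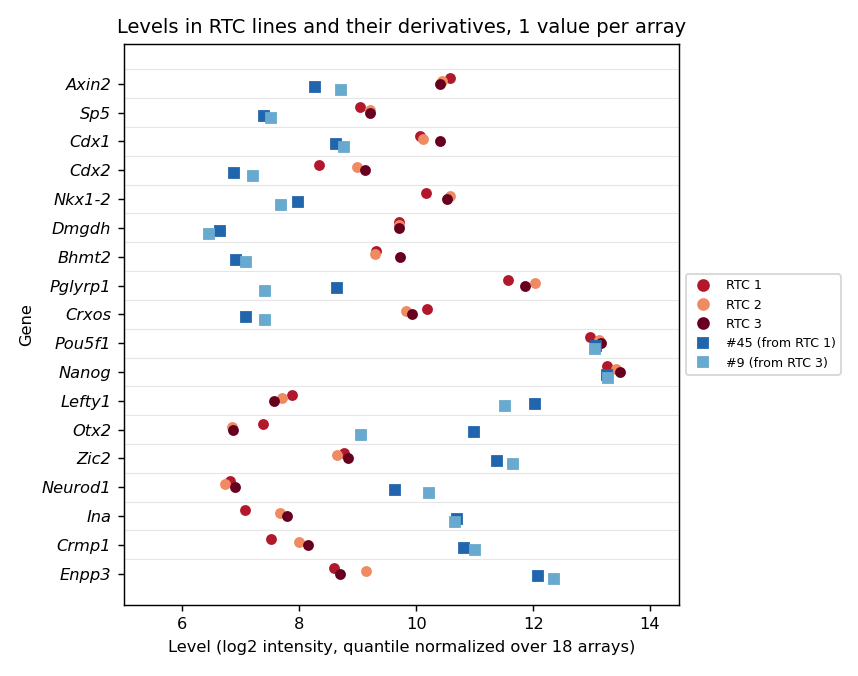
Levels of 18 genes in each of the 5 arrays, on a horizontal axis of log2 intensity, with circles for RTCs and squares for derivatives. Wnt targets, posterior factors and the other RTC-high genes lie to the right in the RTCs, Pou5f1 and Nanog coincide, and Lefty1 and the anterior and neuronal genes lie to the right in the derivatives.

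Some Wnt target genes were higher in RTCs and others were not. In all list counts a member was tested only if it exceeded the array median in some array, so one that is bright in a single group enters through that group. Of 24 tested genes of Wnt feedback and targets (30 measured), 6 rose (Axin2, Cdx2, Sp5, Cdx1, Rnf43 and Lef1) and 0 fell, where 0.838% of all genes tested rose, with a median difference of 0.22 beside -0.02 over all genes. Cdx2, Sp5 and Rnf43 were under the array median in both derivatives and were tested only through the RTCs, so the share called is not given as a result. Axin2, a scaffold of the destruction complex that Wnt signalling induces as its own brake, lay at 10.57, 10.44 and 10.41 in the RTCs and at 8.26 and 8.72 in the derivatives. The RTC arrays lay close together and far above either derivative (difference 1.98 ± 0.20, adjusted p = 0.00737, with 2.31 in line 1 and 1.69 in line 3). Sp5, a zinc finger factor induced directly by beta-catenin, lay at 9.04, 9.20 and 9.20 against 7.40 and 7.52 (1.69 ± 0.17, adjusted p = 0.00737), and the 2 lines gave 1.64 and 1.68. Rnf43, a ubiquitin ligase that removes Frizzled receptors from the membrane, lay at 8.29, 8.34 and 8.17 against 7.14 and 7.21 (1.09 ± 0.17, adjusted p = 0.0317). Lef1, a DNA-binding partner of beta-catenin, lay at 9.69, 9.95 and 9.92 against 8.74 and 8.87 (1.05 ± 0.18, adjusted p = 0.0411). Both are the smaller calls, and with the line as a fixed block they had adjusted p = 0.0718 and 0.0882. Other well-known targets did not pass, among them Nkd1 (difference 0.00, adjusted p = 0.999), Myc (0.17, 0.86), Ccnd1 (0.16, 0.795) and Cd44 (-0.05, 0.978). Lgr5, an intestinal stem cell receptor and Wnt target, was below the array median in all 5 arrays (6.41, 6.48 and 6.32 against 6.57 and 6.46) and was not tested. Sp5 passed whichever array was left out (adjusted p 0.0258 to 0.0497), and Axin2 missed without RTC 1 (0.0633) and passed otherwise. Rnf43 passed only without #45 (0.0453), Lef1 with no array left out (0.0623 to 0.202), and the list held 2 to 4 genes called higher.

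Among 45 tested components of the Wnt pathway itself, 1 rose and 1 fell, and the median difference was -0.04. Of all genes tested 0.838% rose and 0.762% fell. The Wnt receptor Fzd10 lay at 9.62, 9.61 and 9.89 in RTCs and at 8.45 and 7.92 in derivatives (1.52 ± 0.22, adjusted p = 0.0264). Sfrp2, a secreted protein that binds Wnt ligands, lay at 7.62, 7.79 and 7.55 against 9.68 and 9.52 (-1.95 ± 0.18, adjusted p = 0.00486). Both differences had the same sign in the 2 lines, 1.17 and 1.96 for Fzd10 and -2.06 and -1.96 for Sfrp2. Sfrp2 passed whichever array was left out (0.0117 to 0.0497), and Fzd10 passed only without #45 (0.0258; up to 0.109 otherwise).

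The upstream sequence of Sp5 is shown because Sp5 was the Wnt target called under every array left out, and because it holds the letters of a TCF/LEF motif. It is the 250 bases before the RefSeq start site (GRCm38.p6, plus strand, chr2:70474673-70474922), with CTTTGAT in capitals, beginning 104 bases before the start.
Sp5 upstream: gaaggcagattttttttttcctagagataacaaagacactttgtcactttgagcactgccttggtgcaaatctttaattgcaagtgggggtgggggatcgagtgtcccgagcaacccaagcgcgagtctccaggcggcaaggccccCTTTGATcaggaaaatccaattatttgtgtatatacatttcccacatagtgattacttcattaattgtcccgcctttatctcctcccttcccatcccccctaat
Searched on both strands, CTTTGAT occurred in the same window of 2.85% of the 9575 tested genes that have a RefSeq promoter entry, in 4 of 81 genes higher in RTCs (4.94%) and in 1 of 70 lower (1.43%). For CTTTGAA the shares were 3.68%, 4 of 81 (4.94%) and 3 of 70 (4.29%). The called genes were thus few in every class, and a match is a description of letters, not of binding. Frmd4b, which was higher in RTCs, held both motifs, and 6.33% of tested genes held either of them.

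Several posterior and primitive streak genes rose, while most members of that list lay at or below 0. Of 14 tested genes of the primitive streak and early mesoderm (25 measured, the other 11 under the array median in all 5 arrays), 5 rose (Nkx1-2, Cdx2, Bmp4, Sp5 and Cdx1) and 0 fell, where 0.838% of all genes tested rose. Cdx2 and Sp5 were under the array median in both derivatives and were tested only through the RTCs, so the share called is not given as a result. The list's median was -0.02, with 8 of 14 members below 0, and Cdx2, Sp5 and Cdx1 are the genes already counted as Wnt targets. Nkx1-2, a homeobox gene of the posterior epiblast, lay at 10.17, 10.57 and 10.53 in RTCs and at 7.98 and 7.68 in derivatives (2.59 ± 0.21, adjusted p = 0.00332). It was among the genes called whichever array was left out (up to 0.0329). Cdx2, a caudal homeobox factor of trophectoderm, the posterior embryo and intestine, lay at 8.34, 8.98 and 9.12 against 6.88 and 7.21 (1.77 ± 0.27, adjusted p = 0.0301). Its relative Cdx1 lay at 10.07, 10.11 and 10.40 against 8.62 and 8.77 (1.5 ± 0.19, adjusted p = 0.0189). Bmp4, a secreted ligand of mesoderm and trophoblast patterning, lay at 10.94, 11.62 and 11.36 against 9.85 and 9.22 (1.77 ± 0.28, adjusted p = 0.0317). All 4 had RTCs above both derivatives and positive differences in both lines. Cdx2 passed only without RTC 1 (0.0497; up to 0.097 without another array), Bmp4 only without #45 (0.0379; up to 0.104), and Cdx1 only without #45 or #9 (0.038 and 0.0471; up to 0.0885).

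Lists of other lineages in which Cdx2 acts also held calls. Of 23 tested trophoblast genes 3 rose (Cdx2, Elf3 and Gata2) and Fgfr2 fell, or 5 in all were called with the line as a fixed block. Of all genes tested 0.838% rose and 0.762% fell. Cdx2 was tested only through the RTCs and Fgfr2 only through the derivatives, each being under the array median in the other group. The share called is therefore not given as a result. Elf3, an epithelial ETS factor, lay at 11.25, 11.70 and 11.80 against 10.09 and 10.15 (1.46 ± 0.22, adjusted p = 0.027). Gata2, a zinc finger factor of trophoblast and blood that also counts among 2 BMP pathway genes that rose of 23, lay at 9.47, 9.24 and 9.36 against 8.07 and 8.19 (1.23 ± 0.18, adjusted p = 0.0264). Fgfr2, a receptor for FGF ligands, lay at 7.44, 7.41 and 7.50 against 8.66 and 9.23 (-1.5 ± 0.22, adjusted p = 0.0264). None of the 3 kept its call under every array left out: Elf3 passed only without RTC 1 (0.0497; up to 0.116), and Gata2 and Fgfr2 only without #45 (0.0422 and 0.0215; up to 0.129 and 0.098). Of 10 tested enterocyte genes the 2 that rose were Cdx1 and Cdx2, and of 16 intestinal stem cell genes they were Axin2 and Rnf43. Of 30 epithelial identity genes Elf3 rose and Esrp1, a splicing factor of epithelia, fell (9.25, 9.08 and 9.10 against 10.54 and 10.14; -1.20 ± 0.20, adjusted p = 0.0355). Esrp1 passed only without #9 (0.0425; up to 0.161).

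The opposite side of the comparison was led by Lefty1, anterior epiblast genes and neuronal genes. Lefty1, a secreted inhibitor of Nodal that Nodal signalling itself induces, had the largest difference of any gene called. It lay at 7.87, 7.70 and 7.57 in RTCs and at 12.04 in #45 and 11.51 in #9 (-4.06 ± 0.22, adjusted p = 0.00105). The RTC values lay under the array median of 7.93 and the derivative values far above it, with -4.18 in line 1 and -3.94 in line 3. Where 0.838% of all genes tested rose and 0.762% fell, Lefty1 was the only one of 20 tested Nodal pathway genes called lower. The type I receptor Acvr1b was the only one called higher, at 10.57, 10.46 and 10.51 against 9.43 and 9.52 (1.04 ± 0.17, adjusted p = 0.035, or 0.0678 with the line as a fixed block). Lefty2, the family relative of Lefty1, lay at 8.37, 7.41 and 7.04 against 10.49 and 8.28. RTC 1 overlapped #9 there, and the difference of -1.78 ± 0.64 did not pass (adjusted p = 0.274, against 0.00975 with the line as a fixed block). Acvr1b passed only without #45 (0.0472; up to 0.185), and Lefty1 whichever array was left out (0.000894 to 0.0329).

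Of 19 tested genes of formative and primed pluripotency 3 fell (Otx2, Zic2 and, by the probe set used, Zic5), Lef1 rose, and the median was -0.41. Of all genes tested 0.762% fell and 0.838% rose. Otx2 was tested only through the derivatives, so the share called is not given as a result. Otx2, the homeobox factor of the primed epiblast and forebrain, lay at 7.38, 6.85 and 6.87 in RTCs, at 10.98 in #45 and at 9.06 in #9 (-2.99 ± 0.50, adjusted p = 0.0391). The groups did not overlap, but the derivatives differed from each other by about as much as #9 differed from the RTCs. Zic2, a zinc finger factor of the epiblast and neural plate, was more even at 8.77, 8.64 and 8.84 against 11.38 and 11.65 (-2.77 ± 0.18, adjusted p = 0.00216). Zic5, its genomic neighbour on chromosome 14, fell by 2.09 with the probe set used, and by 0.44 with another probe set, so how far Zic5 itself fell is uncertain. Probe set numbers of the genes named ran in blocks by chromosome. The set used was numbered between those of Lyz2 on chromosome 10 and Xaf1 on chromosome 11. The other was numbered between Otx2 on chromosome 14 and Acvr1b on chromosome 15. A large fall of Zic5 itself is therefore not shown. Which of these probe sets reads the gene itself was not tested. Otx2 lost its call without RTC 1 (0.13), RTC 2 (0.0545) or RTC 3 (0.0931).

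Several genes in the list of neuroectoderm and neurons fell. Of its 25 tested genes (35 measured) 10 fell and 0 rose, with a median of -0.54. Zic5 counts among the 10 only by the probe set used. Otx2, Ina, Neurod1, Tubb3, Pax6 and Insm1 were under the array median in every RTC array, so they were tested only through the derivatives. The share called, beside 0.762% of all genes tested that fell, is therefore not given as a result. Ina, the neuronal intermediate filament alpha-internexin, lay at 7.07, 7.67 and 7.79 in RTCs and at 10.69 and 10.66 in derivatives (-3.16 ± 0.25, adjusted p = 0.00306). A second Ina probe set gave -4.28. Neurod1, a bHLH factor of neurons and endocrine cells, lay at 6.82, 6.73 and 6.90 against 9.64 and 10.22 (-3.11 ± 0.22, adjusted p = 0.00233). Crmp1, a protein of growth cone guidance, lay at 7.52, 8.00 and 8.14 against 10.82 and 11.01 (-3.03 ± 0.23, adjusted p = 0.00301). In each of the 3 every RTC array lay below both derivatives by far more than the arrays of either group differed among themselves. Pax6, a homeobox factor of the eye, brain and pancreatic islet, lay at 6.61, 6.34 and 6.49 against 9.00 and 8.10 (-2.07 ± 0.28, adjusted p = 0.021). Insm1, a zinc finger factor of neuroendocrine cells, lay at 7.46, 7.28 and 7.28 against 9.03 and 8.45 (-1.39 ± 0.22, adjusted p = 0.0322). With Neurod1 these 2 also stand in the list of enteroendocrine cells. Of its 20 measured genes 13 were under the array median in all 5 arrays and were not tested, and Neurod1, Pax6 and Insm1 were under it in every RTC array, so that they were tested only through the derivatives. The share of that list called is therefore not given as a result. Ina, Neurod1, Crmp1, Zic2 and, by the probe set used, Zic5 passed whichever RTC array was left out, and the neuronal list then held 5 or 6 calls. Pax6 lost its call without RTC 1 (0.0974) or RTC 3 (0.0619), and Insm1 without RTC 1 (0.1), RTC 2 (0.0956) or RTC 3 (0.13). The 6 neuron markers averaged 8.01, 8.13 and 8.15 in RTCs and 9.09 and 8.97 in derivatives, and the gap came from Neurod1, Tubb3 and Elavl3. Stmn2 (12.80, 12.77 and 12.76 against 12.83 and 12.61), Map2 (8.12, 8.50 and 8.41 against 8.85 and 7.73) and Dcx, under the median in all 5 arrays, did not separate the groups. In such bulk RNA fewer cells of a type and less RNA per cell cannot be told apart.

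**Figure D2:**
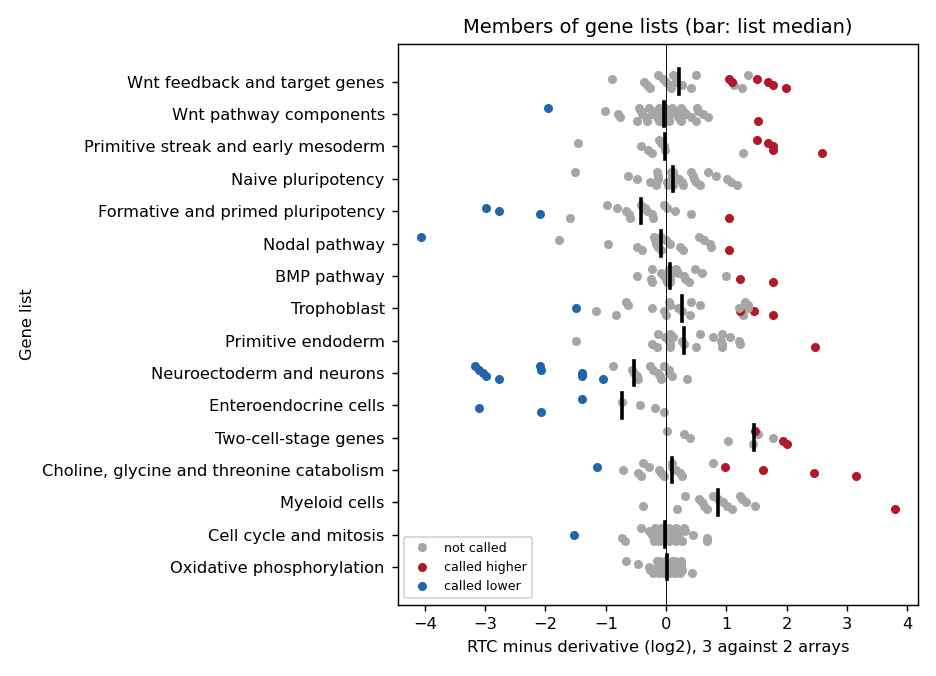
Difference between RTCs and derivatives for the tested members of 16 gene lists, in log2 units on the horizontal axis, with 1 point per gene and a bar at each list's median. Red points (called higher) gather in the Wnt target and primitive streak lists, which share Cdx2, Sp5 and Cdx1, and blue points (called lower) in the neuronal list. Several of these called genes were tested only through the group where they are high. The blue points of the enteroendocrine list, Neurod1, Pax6 and Insm1, are genes of the neuronal list and were tested only through the derivatives. Oxidative phosphorylation genes lie close to 0.

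Dmgdh and Bhmt2, enzymes of choline and homocysteine metabolism, were among the largest rises. Of 19 tested genes of choline, glycine and threonine catabolism 4 rose (Dmgdh, Bhmt2, Cbs and, by the probe set used, Bhmt) and Pipox fell. The median was 0.09, with 10 members above 0 and 9 below. Of all genes tested 0.838% rose and 0.762% fell. Dmgdh, Bhmt2 and Bhmt were under the array median in both derivatives and were tested only through the RTCs, so the share called is not given as a result. With the line as a fixed block 3 of the 19 were called. Dmgdh, the mitochondrial enzyme that oxidises dimethylglycine, lay at 9.70 in all 3 RTC arrays and at 6.64 and 6.45 in #45 and #9 (3.15 ± 0.17, adjusted p = 0.00105). The 2 lines gave 3.06 and 3.25. Bhmt2, which methylates homocysteine from S-methylmethionine, lay at 9.31, 9.30 and 9.72 against 6.91 and 7.08 (2.45 ± 0.20, adjusted p = 0.00362). Its relative Bhmt, which uses betaine and releases the dimethylglycine that Dmgdh oxidises, lay at 8.78, 8.62 and 8.87 against 7.15 and 7.13 (1.61 ± 0.18, adjusted p = 0.00892). Other Bhmt probe sets gave 1.80 and 0.24, the latter at a mean level of 6.08, so whether Bhmt itself rose is uncertain. Which of its probe sets reads the gene itself was not tested, nor was cross-hybridisation with Bhmt2. Cbs, which takes homocysteine towards cysteine, lay at 10.76, 10.67 and 10.70 against 9.72 and 9.75 (0.97 ± 0.17, adjusted p = 0.041, or 0.0891 with the line as a fixed block). Pipox, a peroxisomal enzyme that oxidises sarcosine, the product of Dmgdh, lay at 9.44, 9.53 and 9.77 against 10.72 and 10.71 (-1.14 ± 0.18, adjusted p = 0.035, or 0.0569 with that block). Dmgdh and Bhmt2 passed whichever array was left out. Bhmt missed without RTC 1 (0.0611) or RTC 3 (0.0619), Cbs passed only without #45 (0.0495; up to 0.202), and Pipox never (0.0516 to 0.133).

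Bhmt, Bhmt2 and Dmgdh follow one another on the RefSeq map, and Bhmt2 and Dmgdh start back to back. The 133 bases between their start sites (GRCm38.p6, plus strand, chr13:93674303-93674435) are shown because the pair rose together.
Bhmt2 to Dmgdh: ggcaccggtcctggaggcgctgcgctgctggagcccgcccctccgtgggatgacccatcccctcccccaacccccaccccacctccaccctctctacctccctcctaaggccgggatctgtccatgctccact
The interval is 69.9% G or C, against a median of 52.4% over upstream windows, and holds 6 CpG sites. Looking for such neighbours was decided after these values were seen. Of 7715 adjacent pairs of tested genes, 8 (0.104%) had both members called, and in all 8 the members had the same direction. The 1.6% of all genes tested that were called is a share of single genes, so it is no yardstick for the share of pairs. Bhmt2 stands in 2 of the pairs. Whether neighbours were called together more often than other genes was not tested. For 2 of the pairs, Bhmt with Bhmt2 and Zic5 with Zic2, this rests on the probe set used, as other probe sets gave 0.24 for Bhmt and -0.44 for Zic5. The sets used for Bhmt and Zic5 were numbered outside the block of the gene's own chromosome, so both pairs are uncertain. Besides Bhmt with Bhmt2 and Bhmt2 with Dmgdh the pairs were Zic5 with Zic2, Prelid3a with Spire1, Tgfbr3 with Brdt, Ctsc with Rab38, Nkx1-2 with Lhpp, and Slco2a1 with Rab6b.

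Genes outside these pathways made up most of the list: 145 of the 191 stood in none of the 34 gene lists. The largest rise was that of Pglyrp1, a peptidoglycan-binding protein of innate immunity, at 11.57, 12.04 and 11.86 in RTCs against 8.65 and 7.41 (3.79 ± 0.36, adjusted p = 0.0053). The homeobox gene Crxos lay at 10.18, 9.82 and 9.93 against 7.08 and 7.42 (2.72 ± 0.20, adjusted p = 0.00301). It overlaps Crx on the opposite strand, and the strand its probe set reads is not stated in the labels. Cited1, a transcriptional coactivator, lay at 10.75, 11.10 and 11.40 against 8.87 and 8.38 (2.46 ± 0.25, adjusted p = 0.00737). It was the only one of 23 tested primitive endoderm genes that rose, where 0.838% of all genes tested did, and 2 were called with the line as a fixed block. Mcc, a gene named for its mutation in colorectal cancers, lay at 10.36, 10.53 and 10.43 against 8.36 and 8.18 (2.17 ± 0.18, adjusted p = 0.00332). P2ry2, a receptor for extracellular nucleotides, lay at 10.40, 10.74 and 10.64 against 8.29 and 8.74 (2.08 ± 0.21, adjusted p = 0.00737). Btla, an inhibitory receptor of lymphocytes, lay at 7.77, 8.14 and 8.10 against 5.89 and 5.84 (2.14 ± 0.19, adjusted p = 0.00434), below the array median in both derivatives. Crxos, Cited1, Mcc, P2ry2 and Btla passed whichever array was left out, and Pglyrp1 missed without RTC 1 (0.0611).

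The other large rises were smaller or less even. Cd3g, a T cell receptor subunit, rose by 2.30 and was the only one of 6 tested lymphoid genes called, where 1.6% of all genes tested were. Flvcr2, a membrane transporter, rose by 2.30, Xaf1, an interferon-induced binding partner of XIAP, by 2.29, AA467197 by 2.29, the imprinted zinc finger gene Plagl1 by 2.20 and the small GTPase gene Rerg by 2.18. Xaf1 was the only interferon response gene called of 20 tested, and Plagl1 the only imprinted gene of 28, where a fixed block for the line called 5. Each of these 6 genes missed the threshold without RTC 1 (adjusted p 0.0599 to 0.0974). Flvcr2 and AA467197 missed it also without RTC 3 (0.0828 and 0.0619), and Cd3g and AA467197 without #9 (0.0525 and 0.072).

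Among the falls outside the neural group, Enpp3, a cell surface enzyme that cleaves extracellular nucleotides, came next to Lefty1. It lay at 8.59, 9.14 and 8.69 in RTCs against 12.09 and 12.36 (-3.42 ± 0.22, adjusted p = 0.00216). Elmo1, which activates Rac in cell migration and engulfment, lay at 7.37, 7.29 and 7.19 against 9.96 and 9.72 (-2.56 ± 0.18, adjusted p = 0.00233). Map7d3, a microtubule-associated protein, lay at 7.48, 7.76 and 7.19 against 9.96 and 9.82 (-2.41 ± 0.22, adjusted p = 0.00434). In RTCs Elmo1 and Map7d3 lay below the array median of 7.93, whereas Enpp3 lay above it. Usp26, a testis-expressed ubiquitin protease, fell by 2.15, the meiotic cohesin gene Smc1b by 2.01 and the transcription factor gene Myrf by 1.98. Mycn, the Myc family member of embryonic and neural cells and the only one of 38 tested cell cycle genes called, lay at 10.67, 10.88 and 10.94 against 11.95 and 12.75 (-1.52 ± 0.26, adjusted p = 0.041). Plk3, a stress kinase and the only one of 23 tested p53 targets called, lay at 9.21, 9.50 and 9.26 against 10.81 and 11.58 (-1.87 ± 0.26, adjusted p = 0.0234). Of all genes tested 1.6% were called, so 1 call says little about either list. Enpp3, Elmo1 and Usp26 passed whichever array was left out, and Map7d3 missed without RTC 1 (0.0527). Smc1b missed without RTC 1 (0.114), RTC 3 (0.0869) or #9 (0.0618), Myrf without RTC 1 (0.0721) or #9 (0.0572), and Plk3 without RTC 1 (0.1) or RTC 3 (0.0846). Mycn passed only without #45 (0.023; up to 0.141).

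Genes of the 2-cell stage, which a small share of pluripotent cells express, leaned towards RTCs. Of 32 genes listed 14 were measured, and 4 of these were under the array median in all 5 arrays and were not tested. All 10 tested lay above 0, with a median of 1.46, and 3 passed, or 6 with the line as a fixed block. The 3 calls, Tmem92, Zfp352 and Arg2, and also Tdpoz3, were under the array median in both derivatives. They were thus tested only through the RTCs, and the share called, beside 0.838% of all genes tested that rose, is not given as a result. Zfp352, a zinc finger gene of the early embryo, lay at 9.89, 9.24 and 9.62 against 7.39 and 7.92 (1.93 ± 0.26, adjusted p = 0.0213). Tmem92 rose by 2.00 and Arg2, a mitochondrial arginase, by 1.47 (adjusted p = 0.0099 and 0.0355). The median difference was 1.95 in line 1 and 0.77 in line 3, and #9 lay between #45 and the RTCs in several members that did not pass, such as Obox6 (11.52, 11.69 and 11.67 against 9.07 and 10.63; adjusted p = 0.0897). The 3 calls were lost without RTC 1 (adjusted p = 0.0709 for Tmem92, 0.0914 for Zfp352 and 0.123 for Arg2). Arg2 missed also without RTC 2 (0.0694), RTC 3 (0.135) or #45 (0.0528), Zfp352 without RTC 3 (0.0758), and Tmem92 without #9 (0.0517).

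In most broad programmes few or no genes were called. Of all genes tested 1.6% were called, so a list of this size can hold 0 calls without its members being alike in the groups. Of 30 tested naive pluripotency genes 0 rose and 0 fell, with a median of 0.11 and 22 members above 0. Gbx2 (1.18, adjusted p = 0.0706), Nr5a2 (1.07, 0.066) and Tbx3 (1.01, 0.0864) came close to the threshold. Likewise 0 of 35 genes of oxidative phosphorylation, 0 of 22 of glycolysis, 0 of 15 of DNA methylation, 0 of 10 Hox genes and 0 of 26 Atf4 targets passed, with medians of 0.02, 0.11, -0.06, -0.01 and -0.18. With the line as a fixed block 1 gene of DNA methylation and 1 Atf4 target were called, and 0 of the other 4 lists. Without #45, 3 Atf4 targets and 1 DNA methylation gene were called lower and 2 glycolysis and 2 naive pluripotency genes higher, and without #9 1 DNA methylation and 1 naive pluripotency gene lower. Of the 26 Atf4 targets, 22 lay below 0. Ebp, a sterol isomerase, was the only one of 27 genes of sterol and fatty acid synthesis to rise (1.20 ± 0.20, adjusted p = 0.035). Of 22 germline genes Brdt and Stk31 rose by 1.13 and 1.05 and Usp26 fell (the first 2 with adjusted p = 0.0576 and 0.114 under that block), and of 9 endothelial genes the receptor kinase gene Tie1 rose by 1.15. These 4 calls were weak: Ebp and Brdt passed only without #45 (0.0453 and 0.0472; up to 0.134 and 0.14), and Stk31 and Tie1 with no array left out (0.072 to 0.199 and 0.0541 to 0.153). Without adjustment limma gave p below 0.05 for 10 of the naive pluripotency genes, 2 of oxidative phosphorylation, 4 of glycolysis, 4 of DNA methylation, 0 Hox genes and 7 Atf4 targets, and for 1686 of all 11940 genes.

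The 2 lines were then compared by their own differences, RTC 1 minus #45 and RTC 3 minus #9, which share no array and have 1 array per arm, so they carry no test. In line 1, 357 genes were at least 2-fold higher in the RTC (2.99% of those tested) and 341 lower (2.86%). In line 3, 484 were higher (4.05%) and 309 lower (2.59%). In both lines 95 genes were 2-fold higher and 105 lower, while 32 went 2-fold in opposite directions. The 95 were 26.6% of line 1's higher genes and 19.6% of line 3's, and the 105 were 30.8% and 34% of the lower ones. Across all 11940 genes the 2 differences correlated at r = 0.26, a description over genes that are not independent. Of the 191 genes called, 145 were at least 2-fold apart in both lines in the same direction, as were 200 of all 11940 genes. The calls used these same arrays and had no overlap between groups, so the shared sign was fixed by the calls and is no separate result.

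**Figure D3:**
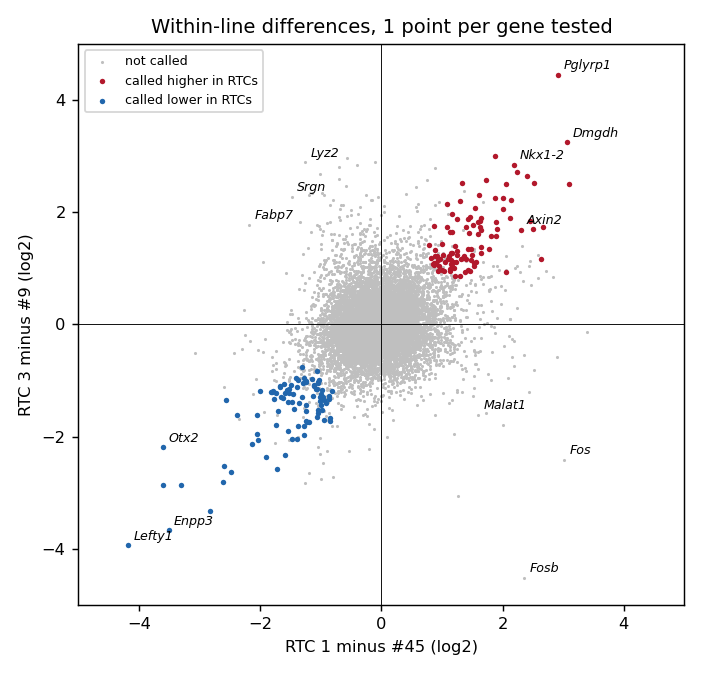
RTC 1 minus #45 (horizontal) against RTC 3 minus #9 (vertical), in log2 units, with 1 point per tested gene. The called genes lie in the lower left and upper right, where both lines have the same sign, which their lack of overlap between groups requires. Fos, Malat1, Lyz2, Srgn and Fabp7 lie far out in the other 2 quadrants.

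The lines disagreed by at least 2-fold on 32 genes, of which a few are described here. Fos, an immediate early transcription factor, lay at 10.34 in RTC 1 and 7.33 in #45, but at 8.15 in RTC 3 and 10.55 in #9, so that RTC 1 and #9 were the high arrays. Fosb, its relative, had the same order, with 9.69 and 7.34 in line 1 and 7.31 and 11.83 in line 3. Lyz2, the lysozyme of macrophages, lay at 9.96 in RTC 1 and 11.23 in #45, and at 11.94 in RTC 3 and 9.05 in #9. For the 17 tested myeloid genes the median difference was -0.59 in line 1 and 1.53 in line 3. Pglyrp1 was the only one called, where 1.6% of all genes tested were. The mean of 6 myeloid markers was 8.08, 9.06 and 9.00 in RTC 1, RTC 2 and RTC 3 and 8.50 and 7.89 in #45 and #9, with 4 of the 6 above the array median in some array. Csf1r, the receptor for macrophage colony-stimulating factor, was below the median in all 5 but was likewise highest in RTC 2 and RTC 3 (6.58, 7.87 and 7.70 against 7.04 and 7.04). Ptprc, a marker of all leukocytes, was also below it in all 5 (6.38, 6.83 and 6.67 against 6.48 and 6.46). The mean of 5 primitive endoderm markers was 8.17, 10.05 and 9.41 against 8.58 and 8.14, and its tested list had a median of -0.32 in line 1 and 0.78 in line 3. The endodermal receptor gene Cubn lay at 6.98, 10.15 and 9.59 against 8.11 and 7.24 and overlapped between groups. Thus RTC 2 and RTC 3 carried more of both sets than RTC 1, and #45 more than #9. Markers of fibroblasts or feeder cells averaged 8.72, 9.26 and 9.11 against 8.83 and 8.80 (12.73 in an untreated fibroblast array), with Lum below the median in all 5, and 0 of 26 tested fibroblast genes passed (1 at an unadjusted p below 0.05). The part of these cell types in the RTC results was not tested.

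**Figure D4:**
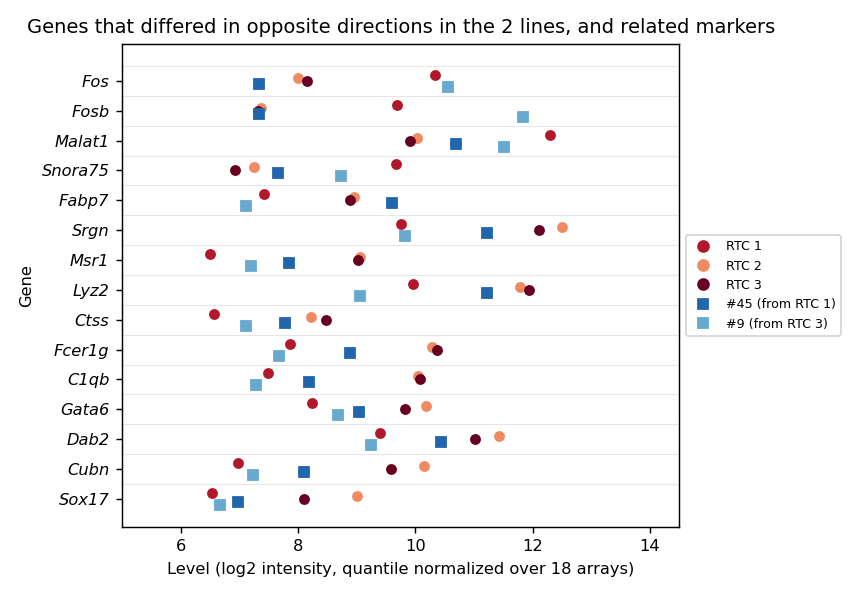
Levels of 15 genes in each of the 5 arrays, on a horizontal axis of log2 intensity, with circles for RTCs and squares for derivatives. For Fos and Fosb RTC 1 and #9 are the high arrays, and for the myeloid and endodermal genes RTC 2 and RTC 3 lie to the right of RTC 1 and of #9.

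The 191 genes were also looked up in ESC arrays that the comparison had not used, with 1 array per arm and no test. In Apc Min/Min minus Apc +/+ ESCs, 88 of the 100 genes higher in RTCs were positive, where 43.2% of all tested genes were, and 39 were at least 2-fold higher, against 3.9% of all genes. Of the 91 genes lower in RTCs 89 were negative (97.8%, against 56.7% of all), and 48 at least 2-fold lower (52.7%, against 5.33%). In neither set did a gene go 2-fold the other way. The median difference was 0.77 for the higher and -1.18 for the lower genes. The Min/Min array also carried high primitive endoderm levels, with Gata6 at 11.65 against 8.17 in Apc +/+, and the part of the medium named for it was not tested.

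Axin2 lay at 8.41 in Apc +/+, 8.61 in Min/+ and 10.90 in Min/Min ESCs, so the derivatives (8.26 and 8.72) stood beside the first 2 genotypes and the RTCs (10.41 to 10.57) nearer the third. Nkx1-2 lay at 7.25, 7.17 and 10.65 and Lefty1 at 10.56, 10.60 and 7.80 in the same order of genotypes. Dmgdh lay at 6.47, 6.62 and 8.47, below the 9.70 of the RTCs. The RTC levels of these 4 genes were thus on the side of the Min/Min array. Crxos did not follow, at 6.14, 6.22 and 5.94 in the ESCs against 9.82 to 10.18 in RTCs, and neither did Bmp4 (11.24, 11.47 and 10.31) nor Elf3 (11.08, 11.14 and 10.60), whose Apc +/+ ESC levels lay nearer to those of the RTCs than to those of the derivatives. For Bmp4 and Elf3 the derivatives were the low arrays, at 9.85 and 9.22 and at 10.09 and 10.15.

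In S33 ESCs, dox was followed by smaller differences. Of the 100 genes higher in RTCs 69 were positive (52.2% of all genes were) and 9 at least 2-fold (0.997% of all), and of the 91 lower genes 62 were negative (68.1%, against 47.7%) and 14 at least 2-fold (15.4%, against 1.85%). Dmgdh went from 6.62 to 8.18 and Lefty1 went from 12.13 to 10.38, whereas Axin2 went from 9.14 to 9.35 and Nkx1-2 from 7.98 to 7.92. Lef1 (10.37 to 7.78), Neurod1 (7.72 to 9.71) and Prmt8 (7.01 to 8.90) were the only genes that went 2-fold or more against their direction in RTCs.

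**Figure D5:**
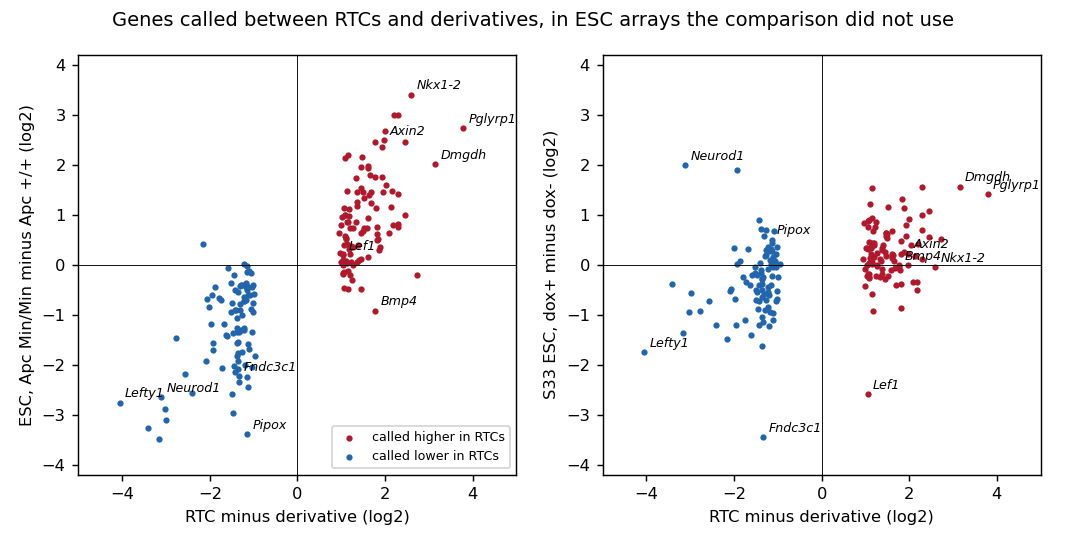
The 191 called genes, with RTC minus derivative on the horizontal axis of both panels and, on the vertical axes, the ESC difference Apc Min/Min minus Apc +/+ (left) or S33 dox+ minus dox- (right), all in log2 units. In the left panel most points lie in the lower left and upper right, and in the right panel they lie closer to 0 with Lef1 and Neurod1 on the opposite side.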

How the data were processed

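Per the labels' protocols, RNA was extracted with a column kit and biotin labelled, and 18 samples were hybridised to 1 array each. The deposited values are 1 linear intensity per probe set and array. The authors' background correction, summarisation and scaling are not given in the sources used here. Deposited medians ran from 201 to 317 in the 5 arrays compared, and the number of arrays limits the precision. A log2 scale had been assumed in planning, so values were first put on log2 and then quantile normalized over 18 arrays. Of 28856 probe sets 3 had no values, and of the others 21789 had 1 gene symbol in the platform annotation, 1621 several and 5443 none. RefSeq matched 21698 and changed 0 symbols. The brightest probe set stood for each of 19938 genes, and the 11940 above the array median in at least 1 of the 5 arrays entered a two-sided limma fit (version 3.58.1, R 4.3.3) by lmFit and eBayes with no block, adjusted by Benjamini-Hochberg over all of them at a threshold of 0.05. SE is the moderated standard error. The procedure was tested on simulated data.

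Titles tie #45 to RTC 1 and #9 to RTC 3, so the line pairs the samples. The deviations from the group means correlated at 0.10 and 0.03 within the pairs. Both a fixed and a random block were run as alternatives, beside other normalizations, filters, all 18 arrays in the fit, an intensity trend, the mean of probe sets and each array left out. Where leaving out a derivative leaves 1 array, that array is assumed to vary like the RTCs.

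The members and gene lists were chosen with earlier results of these data known. Genes named were 7 core genes, the 15 largest rises and falls with the same sign in both lines, up to 6 called members per list and direction, and the 6 genes per direction with the largest opposed differences. Others were named after their values were seen. Promoter sequences are RefSeq's, and 9575 tested genes had one.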

Additional observations from a re-analysis of the deposited data

Results flagged for a closer look

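Of the genes tested, 12 named here differed by at least 1 log2 unit in opposite directions in the 2 lines (RTC 1 minus #45 in line 1, RTC 3 minus #9 in line 3). The difference between lines was not tested, since each line has 1 array per arm. Fos, an immediate early gene, gave 3.01 in line 1 and -2.41 in line 3, and Fosb gave 2.35 and -4.52. The noncoding transcripts and the gene Tbrg3 had that order: Malat1 with 1.60 and -1.61, Snora75 with 2.01 and -1.80, Tbrg3 with 1.73 and -1.58, and Mir505 with 1.51 and -1.28. The reverse order held for Lyz2 with -1.26 and 2.89, Srgn with -1.48 and 2.28, Msr1 with -1.34 and 1.83, Ctss with -1.21 and 1.36, Fabp7 with -2.18 and 1.78, and Tm4sf1 with -1.30 and 1.26. Lyz2, Srgn, Msr1 and Ctss are genes of macrophages and other blood cells. In Fos, Fosb, Malat1, Snora75, Tbrg3 and Mir505 RTC 1 and #9 were the highest of the 5 arrays.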

How the results depend on the processing

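All 191 calls kept their direction in every setting in which the gene was tested. Leaving out an array, or a fixed block for the line, could not change it. In all 191 genes the RTC arrays lay on one side of both derivatives. The count was 196 with quantile normalization over the 5 arrays, 212 with median centring, 192 without the filter, 200 with a stricter one, 199 with an intensity trend and 193 with the mean of probe sets. On the values as deposited it was 81 (58 higher, 23 lower), and line 1 then had 520 genes 2-fold lower; with median centring line 3 had 519. With all 18 arrays in the fit, which pools the spread of all groups, 561 genes passed (275 higher, 286 lower). With the replicate block, which pairs each derivative with its line, 232 passed as a fixed effect (114 higher, 118 lower; 142 of them among the 191), on 1 residual degree of freedom instead of 3, and 302 as a random effect (154 higher, 148 lower), at a consensus correlation of 0.16. Leaving out each array in turn gave 33 to 383 genes, 23 to 207 higher and 10 to 176 lower. The cause of these changes was not tested. Of the 191, 23 were called in all 15 alternatives, the 5 that leave out an array included, among them Lefty1, Dmgdh, Nkx1-2, Sp5, Zic2, Neurod1, Ina, Crmp1, Enpp3, Crxos and Sfrp2. With 2 derivatives, 1 array each, differences below about 0.95 on the log2 scale did not pass, and a gene that missed the threshold was not shown to be alike in the groups.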

Other observations

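Some genes outside the rule for naming were chosen after their values were seen. Tubb3, a neuronal tubulin, lay at 6.61, 7.12 and 7.08 in RTCs and 8.27 and 8.38 in derivatives (-1.39 ± 0.21, adjusted p = 0.0314), and it missed the threshold whichever array was left out (up to 0.104). Dact1, a Dishevelled-binding modulator of Wnt signalling, lay at 8.37, 8.23 and 8.10 against 9.78 and 10.14 (-1.72 ± 0.20, adjusted p = 0.0116), and passed in 3 of 5 fits with an array left out (up to 0.0633). Aoc1, which oxidises histamine and putrescine, lay at 8.43, 9.18 and 9.03 against 6.81 and 7.19 (1.88 ± 0.27, adjusted p = 0.0258), and passed in 1 of those 5 fits (up to 0.0869). Dnmt3a, a de novo DNA methyltransferase, lay at 9.12, 9.37 and 9.47 against 10.16 and 11.66 and did not pass (-1.59 ± 0.40, adjusted p = 0.124), but did with the line as a fixed block (0.0161). Ascl2, a Wnt-induced bHLH factor of intestinal stem cells and trophoblast, lay at 9.57, 10.06 and 9.96 against 8.18 and 8.82 (1.36 ± 0.26, adjusted p = 0.0526, or 0.0303 with that block). Among Y-linked genes, Zfy1 lay at 10.71, 10.59 and 9.54 against 8.92 and 8.91 (adjusted p = 0.124). Dppa3, a germ cell and naive pluripotency gene, lay the other way from most of its list, at 8.07, 8.24 and 8.60 against 10.51 and 9.11 (-1.51 ± 0.39, adjusted p = 0.134).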
